A study of Mus musculus with 4 samples.

Results

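Goblet cell and mucus genes are described here across normal colon and colon tumours of mice with intact or floxed Dmt1. The 10 genes were taken from a list by symbol: the mucins Muc2, Muc1, Muc4 and Muc13, the secreted proteins Tff3, Fcgbp, Zg16 and Retnlb, the chaperone Agr2 and the transcription factor Spdef. All 10 of 10 had a probe set annotated to exactly 1 gene, among 22180 genes named on the array. Where a gene had several such probe sets the one with the highest mean was used, a choice that arose only for Muc2. All 10 also passed a filter on low values, which dropped genes that stayed under the median gene's level (log2 4.67) on every array and left 12060 genes.

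Each combination of tissue and genotype was measured on 1 Affymetrix whole-transcript array, 4 in all, so no group has a replicate. All mice were C57BL/6, aged 3 months, and carried ApcF/+ together with the label CDX2. The groups were CDX2; Dmt1+/+/ApcF/+ normal colon and tumour, called wild-type here for Dmt1, and CDX2; Dmt1F/F/ApcF/+ normal colon and tumour, called F/F. F is the usual shorthand for a floxed allele, one with loxP sites around a stretch that Cre can remove, so ApcF/+ mice keep an unaltered Apc allele and Dmt1 F/F mice have both copies floxed. The labels do not say what CDX2 stands for or which cells lose the floxed alleles. The design text gives 7 wild-type and 4 F/F animals, and the sources used here do not give how these were pooled or assigned to the arrays. Slc11a2, the gene also called Dmt1, had a log2 signal of 6.51 in wild-type and 6.13 in F/F normal colon, and of 6.64 and 6.19 in the wild-type and F/F tumours. It was lower on the F/F array in both tissues, the direction of its label, but whether the probes lie in the floxed stretch was not tested.

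Goblet cells are the secretory cells that lay down the mucus of the colon. They fill their granules with MUC2, a very large gel-forming mucin that is folded in the endoplasmic reticulum, heavily O-glycosylated in the Golgi and released as a net that keeps bacteria off the epithelium. FCGBP, ZG16, the trefoil peptide TFF3 and the resistin-like protein RETNLB are released with it. A second class of mucins, among them MUC1, MUC4 and MUC13, spans the cell membrane and is made by absorptive cells as well. Goblet cells form under the transcription factor ATOH1 and mature under SPDEF and KLF4, and CDX2 is known as a driver of MUC2 transcription.

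The promoters of the 4 genes below are shown because Spdef, Agr2 and Muc4 fell in the tumours and Muc2 is the main mucin of the gel. Of the 10 genes, 7 matched RefSeq's promoter table by symbol, and Tff3, Zg16 and Retnlb did not. Each line gives the 250 bases before the annotated start, 5′ to 3′ on the gene's strand, in build GRCm38.p6, with matches to the searched motifs in capitals:
Spdef, chr17:27728952-27729201, minus strand: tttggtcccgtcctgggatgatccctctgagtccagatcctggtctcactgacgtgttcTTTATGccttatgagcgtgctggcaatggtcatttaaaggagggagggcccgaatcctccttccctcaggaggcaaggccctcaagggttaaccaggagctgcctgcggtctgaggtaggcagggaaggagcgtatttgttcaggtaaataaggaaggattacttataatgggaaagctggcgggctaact
Agr2, chr12:35992675-35992924, plus strand: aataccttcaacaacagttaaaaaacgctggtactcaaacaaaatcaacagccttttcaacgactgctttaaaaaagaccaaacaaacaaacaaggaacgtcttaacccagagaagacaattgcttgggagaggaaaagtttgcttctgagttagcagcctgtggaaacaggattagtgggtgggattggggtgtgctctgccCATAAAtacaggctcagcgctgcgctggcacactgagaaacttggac
Muc4, chr16:32735636-32735885, plus strand: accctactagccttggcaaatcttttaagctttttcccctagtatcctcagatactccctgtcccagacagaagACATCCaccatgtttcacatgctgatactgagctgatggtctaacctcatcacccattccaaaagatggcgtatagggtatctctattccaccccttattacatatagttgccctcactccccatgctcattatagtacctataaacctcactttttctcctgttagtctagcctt
Muc2, chr7:141690090-141690339, plus strand: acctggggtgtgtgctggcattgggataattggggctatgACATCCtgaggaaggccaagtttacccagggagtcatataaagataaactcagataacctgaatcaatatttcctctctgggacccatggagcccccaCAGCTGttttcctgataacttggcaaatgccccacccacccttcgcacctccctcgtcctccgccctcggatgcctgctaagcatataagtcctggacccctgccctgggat
Both strands were searched for CAGCTG and CAGATG, which are E-boxes of the kind ATOH1 binds, TTTATG for CDX factors, GGATGT for SPDEF, TGTTTA for FOXA factors and a STAT6 motif, TTC and GAA with 4 bases between them. No matches overlapped. TTTATG was present in the windows of 3 of the 7 genes, Spdef at 191 bases and Agr2 at 47 bases before the start, and Muc13 at 180 bases before the first of its start sites. It is in 10.8% of all 32851 promoter windows of this length. CAGCTG was found for Muc2, at 112 bases, and for Fcgbp, at 208 bases before the start, and is in 13.0% of all windows. CAGATG, in 14.4% of windows, was found for Muc1 and Muc13, and GGATGT, in 9.46%, for Muc2 and Muc4. TGTTTA, in 12.0% of windows, and the STAT6 motif, in 5.85%, had no match in the windows of the 7 genes. These matches describe the letters of the windows and not bound sites.

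Values are log2 signals, and a difference of 1 is 2-fold. Tumour was compared with normal colon over both genotypes with limma, a linear model across all 12060 genes with a tissue and a genotype term, and a gene rose or fell where its Benjamini-Hochberg adjusted p was under 0.05. With 4 arrays a gene's own error is how far its tumour change differs between the genotypes, which leaves 1 residual degree of freedom. This error is combined in limma with a prior variance taken from all genes, which counted for 3.40 degrees of freedom. Each SE, interval and p-value therefore rests more on that prior than on the gene's own arrays. Of the 10 genes, 4 fell, none rose and 6 did not pass: Retnlb, Spdef, Muc4 and Agr2 fell. Over all genes 8.23% fell and 11.0% rose, so that 57.3% of the calls were rises, or 46.4% after cyclic loess normalization. The median fitted difference of the 10 genes was -0.44, and that of all genes 0.07. Both tumour arrays lay below both normal arrays for 6 of the 10 genes and above them for none, where 29.2% and 40.1% of all genes did so. In bulk tissue, fewer goblet cells and less RNA per goblet cell cannot be told apart.

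**Figure D1:**
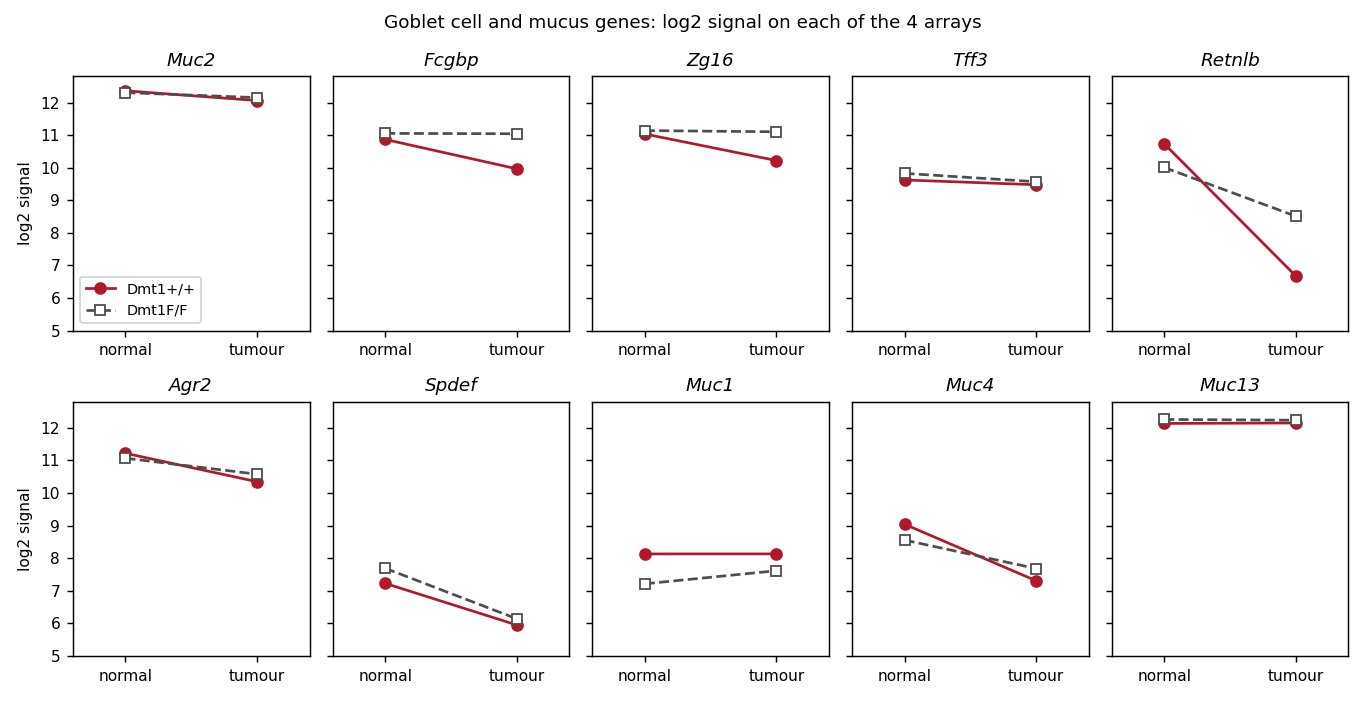
The log2 signal of each of the 10 genes on the 4 arrays, normal colon on the left and tumour on the right of each panel, with filled circles for Dmt1+/+ and open squares for Dmt1F/F. Each point is 1 array without an error, the lines only join the arrays of a genotype, and heights are not compared between genes. Retnlb has the steepest lines, from 10.73 to 6.67 in Dmt1+/+ and from 10.01 to 8.51 in Dmt1F/F, while Muc13 is flat.

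Muc2, the gel-forming mucin itself, had a log2 signal of 12.36 in wild-type normal colon, 12.30 in F/F normal colon, 12.06 in the wild-type tumour and 12.15 in the F/F tumour. The tumour arrays were the lower ones, without overlap, but by little. The fitted tumour difference was -0.23 (SE 0.09, limma adjusted p = 0.155), lower in both genotypes, which puts the tumours at 85.5% of normal colon with a 95% interval of 72.0% to 102%. A second probe set of Muc2 gave differences of -0.37 in wild-type and -0.21 in F/F mice. On each array Muc2 lay within 0.70 of the highest of all probe sets, and whether signals this near the top of the scale understate a difference was not tested.

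Fcgbp, a large mucin-like protein of the mucus gel, was at 10.87 in wild-type normal colon, 11.05 in F/F normal colon, 9.97 in the wild-type tumour and 11.04 in the F/F tumour. The wild-type tumour stood alone below the other 3 arrays. The tumour change was -0.90 in wild-type and -0.01 in F/F mice, and 6.48% and 45.9% of all genes had a change as low or lower. Zg16, a small lectin that binds and aggregates Gram-positive bacteria, had the same arrangement, at 11.03 and 11.14 in wild-type and F/F normal colon, 10.22 in the wild-type tumour and 11.10 in the F/F tumour. Its change was -0.82 in wild-type and -0.04 in F/F mice. Over both genotypes the fitted differences of -0.46 for Fcgbp (SE 0.23, limma adjusted p = 0.222) and -0.43 for Zg16 (SE 0.21, limma adjusted p = 0.208) did not pass. In F/F mice the tumour and normal values of Fcgbp were nearly equal, and after quantile normalization their difference was 0.

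Tff3, the trefoil peptide of goblet granules that promotes epithelial repair, was at 9.62 in wild-type normal colon, 9.83 in F/F normal colon, 9.48 in the wild-type tumour and 9.57 in the F/F tumour. The arrays did not overlap between tissues, and the lowest normal array and the highest tumour array were close. The fitted difference was -0.20 (SE 0.10, limma adjusted p = 0.227), with a 95% interval from -0.48 to 0.08.

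Retnlb, a resistin-like protein of goblet cells that acts against bacteria and worms, had the lowest tumour difference among the 10 genes. It was at 10.73 in wild-type normal colon, 10.01 in F/F normal colon, 6.67 in the wild-type tumour and 8.51 in the F/F tumour. The tumours were far below both normal arrays, and the wild-type tumour was well below the F/F tumour. The wild-type tumour had 6.00% of the signal of its normal colon, a change of -4.06, and the F/F tumour 35.5%, a change of -1.50. Only 0.0829% of all genes changed as low in wild-type mice and 1.53% in F/F mice. Retnlb fell by 2.78 over both genotypes (SE 0.62, limma adjusted p = 0.0474). Because the genotypes differed so much, its 95% interval ran from -4.44 to -1.12. The call was lost without a trend of the prior variance with level (adjusted p = 0.0686), and adjusted p ranged from 0.00592 to 0.0686 over the alternatives tried.

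Agr2, a protein disulfide isomerase of the endoplasmic reticulum needed to make MUC2, was at 11.22 in wild-type normal colon, 11.07 in F/F normal colon, 10.35 in the wild-type tumour and 10.58 in the F/F tumour. The tumour arrays were lower without overlap. Agr2 fell by 0.68 (SE 0.13, limma adjusted p = 0.0361), to 62.3% of normal colon. This call too was lost without the trend (adjusted p = 0.0658, within a range of 0.00654 to 0.0658 over the alternatives).

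Spdef, the transcription factor of goblet cell maturation, was at 7.23 in wild-type normal colon, 7.69 in F/F normal colon, 5.95 in the wild-type tumour and 6.14 in the F/F tumour. Each tumour was more than 2-fold below the normal colon of its genotype, by -1.28 in wild-type and -1.55 in F/F mice. Spdef fell by 1.41 (SE 0.14, limma adjusted p = 0.0120), to 37.5% of normal colon with a 95% interval of 29.2% to 48.3%. It had the lowest adjusted p of the 4 calls and passed under all 7 alternatives, with adjusted p from 0.000996 to 0.0226.

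Of the membrane mucins, Muc4, which can engage the receptor ERBB2, was at 9.04 in wild-type normal colon, 8.56 in F/F normal colon, 7.31 in the wild-type tumour and 7.68 in the F/F tumour. It was lower in both tumours without overlap, by -1.73 in wild-type and -0.87 in F/F mice. Muc4 fell by 1.30 over both genotypes (SE 0.23, limma adjusted p = 0.0314), to 40.5% of normal colon, and passed under all 7 alternatives. A probe set annotated to both Muc20 and Muc4 was left out by the rule.

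Muc13, a membrane mucin of the whole intestinal epithelium, was at 12.14 in wild-type normal colon, 12.26 in F/F normal colon, 12.15 in the wild-type tumour and 12.24 in the F/F tumour. Tumour and normal arrays overlapped. The fitted difference was -0.005 (SE 0.09, limma adjusted p = 0.975), with a 95% interval from -0.24 to 0.23, and like Muc2 it lay within 0.61 of the highest signal on each array. Muc1, a membrane mucin with a signalling tail that often increases in human carcinomas, was at 8.13 in wild-type normal colon, 7.21 in F/F normal colon, 8.13 in the wild-type tumour and 7.61 in the F/F tumour. Its arrays separated by genotype and not by tissue. The fitted tumour difference was 0.20 (SE 0.15, limma adjusted p = 0.370).

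**Figure D2:**
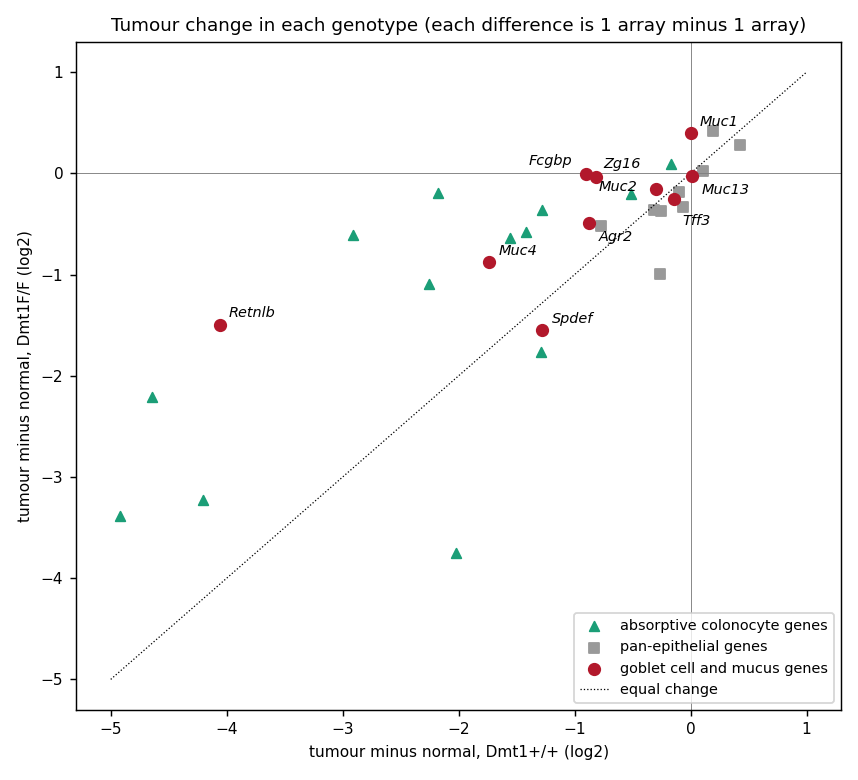
Tumour minus normal log2 difference in Dmt1+/+ mice (horizontal) against that in Dmt1F/F mice (vertical), 1 point per gene, for the 10 goblet cell and mucus genes (circles), 13 absorptive colonocyte genes (triangles) and 9 pan-epithelial genes (squares). The dotted line marks equal change. Retnlb, Muc4, Fcgbp and Zg16 lie above it, and Spdef lies below it. Of the 13 colonocyte genes 11 lie above it, where 5151 of all 12060 genes would.

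The tumour change was set side by side in the 2 genotypes. At a difference of 2-fold or more, 3 of the 10 genes were lower in the wild-type tumour, Retnlb, Muc4 and Spdef, against 5.31% of all genes. In the F/F tumour 2 of them were, Retnlb and Spdef, against 3.81%. The median change was -0.84 in wild-type and -0.20 in F/F mice, where all genes had 0.08 and 0.04. Of the 8 genes lower in both tumours, Fcgbp in F/F mice by only -0.01, 6 were lower by less in F/F mice, and 2, Tff3 and Spdef, by more. Over all genes 4111 were lower in both tumours, and 2105 of them by less in F/F mice. With wild-type normal colon as the baseline of the F/F tumour, an alternative added after the data were seen, 3 of the 10 genes were 2-fold lower, Muc4, Spdef and Retnlb, against 2.10% of all genes. The gap between the changes was widest for Retnlb at 2.56, followed by 0.89 for Fcgbp, 0.86 for Muc4 and 0.78 for Zg16, and only Retnlb reached 1, as did 2.87% of all genes. With 1 array per group, a difference between the changes has no error and was not tested. The normal arrays of the genotypes also differed in position genes, as given below. Genotype and position of the pieces therefore cannot be told apart in a difference between the changes.

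Between the tumours, Retnlb was higher in the F/F tumour by 1.84 and Fcgbp by 1.08, the 2 of 10 genes past 2-fold, against 1.70% of all genes. Zg16 was higher by 0.88, Muc4 by 0.37, Agr2 by 0.23 and Spdef by 0.19. Muc2, Muc13 and Tff3 were each higher by only 0.09, and Muc1 was lower by -0.52. In all, 9 of the 10 genes were higher in the F/F tumour, against 5567 of all 12060 genes. Of the 13 absorptive colonocyte genes 12 were also higher there. Between the normal arrays no member reached 2-fold, where 1.62% of all genes did. Muc1 was lower in F/F normal colon by -0.92, Retnlb by -0.73 and Muc4 by -0.49, and Spdef was higher by 0.46. These normal arrays also differed in position genes, with a mean of the distal list of 5.72 in wild-type and 4.51 in F/F and of the proximal list of 5.54 and 6.47, so that genotype and position of the pieces cannot be told apart here. Muc1 was thus the single member lower in F/F in both tissues, and its fitted genotype difference was -0.72 (SE 0.15, limma adjusted p = 0.523). None of the 10 genes and 0% of all 12060 passed for genotype with limma. At an unadjusted p under 0.05 there were 991 genes, 8.22% of all, with Muc1 and Fcgbp among them. Since 1 set of mice may have given both tissues of a genotype, the genotype term does not measure how animals vary.

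**Figure D3:**
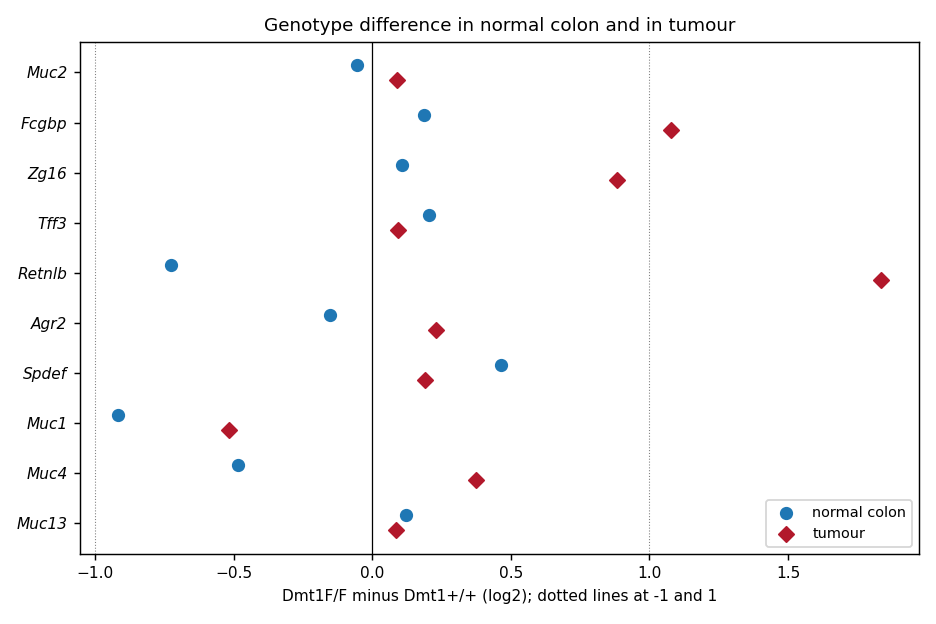
Dmt1F/F minus Dmt1+/+ log2 difference of each of the 10 genes in normal colon (circles) and in tumour (diamonds), each 1 array minus 1 array and without an error, with dotted lines at 2-fold. In tumour Retnlb (1.84) and Fcgbp (1.08) are past 2-fold, and Muc1 is on the negative side in both tissues.

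The other cells in the pieces were followed with marker lists, each given as the mean log2 level of its genes. The levels of 9 pan-epithelial genes, Epcam, Cdh1 and simple keratins among them, were 9.66 and 9.85 in wild-type and F/F normal colon and 9.54 and 9.63 in the tumours, and 1 of 9 genes, Vil1, fell. Absorptive colonocyte markers stood at 9.75, 10.19, 7.49 and 8.80 in the same order, so the F/F tumour also had more colonocyte signal than the wild-type tumour. Smooth muscle markers stood at 9.0, 8.27, 6.98 and 7.70, and the stem cell and Wnt target list at 5.41, 5.05, 8.40 and 7.83. The part of these markers in the higher Retnlb, Fcgbp and Zg16 of the F/F tumour was not tested. Position along the colon was followed with distal and proximal genes: the distal list stood at 5.72, 4.51, 6.72 and 6.70 and the proximal list at 5.54, 6.47, 4.50 and 4.60. The list means of the tumours were close to each other, while the normal arrays differed from them and from each other. The genes of a list did not all move alike. Of 7 kept proximal genes 3 fell in the tumours, 3 did not pass, and Onecut2 rose by 3.08. Over all genes 8.23% fell and 11.0% rose. Onecut2 passed the filter only through the tumour arrays, and Osr2, which fell, only through the normal arrays. Sis passed it only through F/F normal colon and Gata4 only through wild-type normal colon. The counts of this list thus depend in part on the filter. Against wild-type normal colon, the 6 kept distal genes differed by -3.84 to 0.07 in F/F normal colon, with 5 of them lower. A difference in where the pieces were taken and a tumour change cannot be told apart in the comparisons with normal colon. Beside the goblet genes, 8 of 13 absorptive colonocyte genes fell (median -1.53), where 8.23% of all genes did. Of 9 enteroendocrine genes 7 fell and 1 rose (median -1.54). Slc51a in the colonocyte list and Nts in the enteroendocrine list passed the filter only through the normal arrays. Paneth cell genes, the secretory lineage of the small intestine, went the other way: 6 of 8 rose and none fell (median 3.20), where 11.0% of all genes rose. Their list means were 5.76 and 4.86 in wild-type and F/F normal colon and 8.39 and 7.86 in the tumours. Defa21, Defa22 and Defa24 passed the filter only through the tumour arrays, and Mptx2 only through the wild-type tumour. The count and median of this list thus depend in part on the filter. Of 12 leukocyte genes 2 rose and 1 fell (median 0.76). S100a8, 1 of the 2 that rose, passed the filter only through the wild-type tumour. The list means were 5.41 and 5.14 in wild-type and F/F normal colon and 5.83 and 6.06 in the tumours. The near means of the tumours hide opposite differences. Against the wild-type tumour, 4 of the 12 genes were past 2-fold higher in the F/F tumour and 3 past 2-fold lower, from -1.90 to 2.65. Over all 12060 genes 205 were past 2-fold higher and 61 past 2-fold lower. The 3 lower genes, S100a8, S100a9 and Cxcr2, passed the filter only through the wild-type tumour. Cd4, among the higher genes, passed it only through the F/F tumour. These counts thus depend in part on the filter.

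Further goblet cell products were called about as often as all genes. Of 16 listed secreted products 11 were kept, and 1 rose, 1 fell and 9 did not pass, with a median of 0.05. Over all genes 11.0% rose and 8.23% fell, so these counts were near the share of all genes. The gastric-type mucin Muc6 rose by 1.32 (SE 0.15), from 5.15 and 4.65 in wild-type and F/F normal colon to 6.57 and 5.87 in the tumours. The calpain Capn9 fell by 0.93 (SE 0.18). Clca1, a metalloprotease that processes the MUC2 net, was at 11.56 and 11.55 in wild-type and F/F normal colon, 10.46 in the wild-type tumour and 11.44 in the F/F tumour, so that, as for Fcgbp and Zg16, the wild-type tumour stood below the other arrays (limma adjusted p = 0.158). Ang4, an antimicrobial ribonuclease with close relatives in the mouse that its probe set may also detect, was at 9.63 and 8.68 in wild-type and F/F normal colon and 7.89 and 8.94 in the tumours, with overlap between tissues. The lectin Itln1 differed by 0.12 (limma adjusted p = 0.519). Muc5ac, Muc5b, Muc19, Tff1 and Tff2, mucins and trefoil peptides of other epithelia, were under the level of the filter on all 4 arrays. Among other membrane mucins, Muc3 was at 12.13, 12.08, 11.61 and 12.13 and did not pass (adjusted p = 0.346). The related Muc3a was at 10.36, 10.35, 8.47 and 9.96, and whether the probe sets of these close relatives detect each other's transcripts was not tested.

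Of 13 factors listed for goblet and secretory fate, 5 fell and none rose, with a median of -0.29, where 8.23% of all genes fell. The 8 that did not pass were Foxa1, Foxa2, Foxa3, Creb3l1, Creb3l4, Xbp1, Hes1 and Gfi1, so the list did not fall as a whole. Atoh1, which commits cells to the secretory lineage, fell by 0.81 (SE 0.11, limma adjusted p = 0.0212), from 7.66 to 6.84 in wild-type and from 8.47 to 7.66 in F/F mice. It was higher in F/F by 0.81 in normal colon and by 0.83 in tumour. Klf4, a factor of goblet cell differentiation, fell by 1.16 (SE 0.25, limma adjusted p = 0.0460), with changes of -1.65 in wild-type and -0.67 in F/F mice. Both calls were lost with the genotype term left out (adjusted p = 0.178 for Atoh1 and 0.101 for Klf4), and that of Klf4 also without the trend (adjusted p = 0.0689). The intestinal homeobox genes Cdx2 and Cdx1 fell by 2.33 and 0.94, and Hnf4a by 0.62. Gfi1, which acts below Atoh1, was at 4.95, 5.27, 4.95 and 5.04, near the filter level (adjusted p = 0.660).

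The machinery that builds MUC2 was divided. None of 16 kept genes of protein folding and the unfolded protein response rose or fell by limma, with a median of 0.004. The goblet cell stress sensor Ern2 was at 8.17, 8.53, 7.94 and 8.24, a difference of -0.26 (adjusted p = 0.168). Of 23 kept genes of mucin O-glycosylation 11 fell and none rose, with a median of -0.67, where 8.23% of all genes fell. B3gnt6, which makes the core 3 glycans typical of colonic MUC2, fell by 3.16 (SE 0.16, limma adjusted p = 0.00403), from 6.51 to 3.30 in wild-type and from 7.14 to 4.03 in F/F mice. B3gnt6 passed the filter only through its normal arrays, and with both tumour values under the filter level and no detection call, the size of its fall is not well measured. Gcnt3, which branches core structures, fell by 2.11, B4galnt2 by 1.55 and the initiating transferase Galnt12 by 1.21. Absorptive colonocyte genes were lower too (median -1.53), and which cells these falls came from was not tested.

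Of 15 genes of mucus secretion and hydration 7 fell, 2 rose and 6 did not pass, with a median of -0.53. Over all genes 8.23% fell and 11.0% rose. The meprin Mep1b, which cuts MUC2 and frees the mucus from the epithelium, fell by 2.19 (SE 0.26) and its partner Mep1a by 2.11 (SE 0.25). Nlrp6, which is needed for mucus release, fell by 1.32 and the chloride channel Cftr by 1.25. Here too, the cells behind the falls were not tested. The 2 genes that rose were the vesicle priming factor Unc13b, by 0.99, and the chloride importer Slc12a2, by 0.51. Type 2 cytokines are known inducers of Retnlb and Clca1, and 5 of 15 genes of that list were kept: the alarmin Il33 rose by 2.13, and no call was made for the remaining 4. Il4 and Il13 themselves were under the filter level on all 4 arrays, with Il13 between 4.03 and 4.25.

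**Figure D4:**
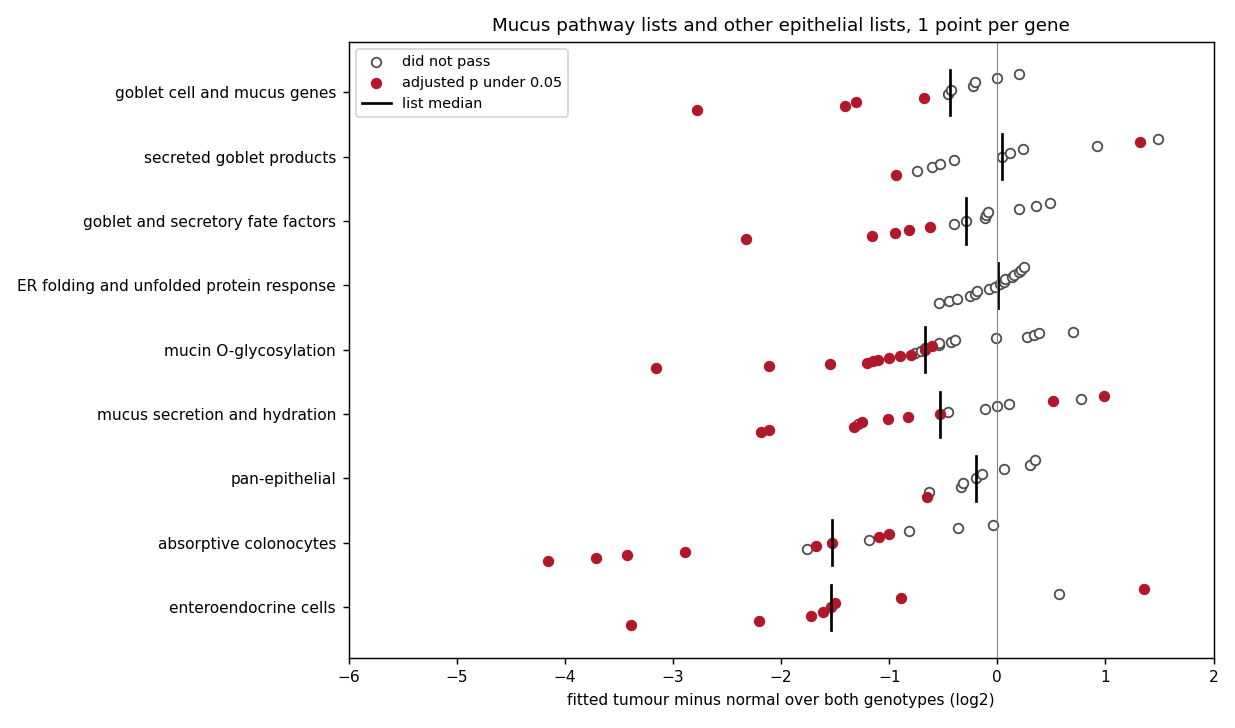
Fitted tumour minus normal difference over both genotypes (log2) of each kept gene in the goblet cell and mucus list, in 5 lists of the mucus pathway and in 3 lists of other epithelial markers. Filled points passed limma at an adjusted p under 0.05, open points did not, and the bar is the list's median: -0.44 for the goblet cell and mucus genes, 0.05 for secreted products, 0.004 for folding, -0.67 for O-glycosylation and -1.53 for absorptive colonocytes.

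Genes with the most similar course over the 4 arrays were found by the Euclidean distance between log2 values centred on each gene's mean, over 12060 genes. For Spdef the nearest were Daglb (distance 0.05), Pdk4, Calb2, Ces1e and Cd7 (0.14). All were lower in both tumours, which follows from choosing them by the course of Spdef. Calb2 and Ces1e passed the filter only through the normal arrays. For Retnlb the nearest were Apol10a (0.47), Dpep1, Phf11b, Sult1a1 and 1810065E05Rik (0.90). Even the nearest gene was thus further from Retnlb than the fifth gene was from Spdef. Apol10a went from 9.54 and 9.26 in wild-type and F/F normal colon to 5.69 and 7.12 in the tumours. Muc2 changed so little that Rars2, Slit3, Ushbp1, Gm2695 and Zfp654 all lay within a distance of 0.03. Distances over 4 arrays describe these arrays, and many genes share so short a course.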

How the data were processed

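Total RNA (400 ng) from each of 4 pieces or pools of mouse colon was labelled with biotin and hybridised to Affymetrix whole-transcript arrays, per the labels' protocols. The values are log2 signals per probe set as deposited by the authors, made with RMA in oligo per the submitters' processing notes, with versions and genome build not given in the sources used here. RMA equalises the distribution of signal between arrays for single probes, and gives no detection call or error. The deposited probe set values still had medians from 4.27 on the F/F normal array to 4.34 on the tumour arrays. Columns of other samples numbered 0. Of 41345 probe sets, 23521 had 1 gene in the platform annotation, 1814 several and 16010 were unnamed; 23328 matched RefSeq (GRCm38.p6) by gene ID and 193 kept the annotation's symbol. The filter was the median level of all genes. limma 3.58.1 (R 4.3.3) was fitted with tissue and genotype terms and eBayes with a trend, and checked on simulated data. Alternatives were other scalings, no filter, the mean of probe sets, no trend, and the term not tested left out. Members and lists were chosen with earlier results of these data known. Named genes were the 10 members, up to 4 called genes per other list with the largest differences, and 16 genes chosen by role, of which Muc20 had no probe set of its own. Outside this rule, Hnf4a, Unc13b, Slc12a2 and Muc3a, and the genes of the closing observations, were named after their values were seen. Others are named without values. The number of arrays limits precision, and no p-value is given for a difference of 2 arrays.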

Additional observations from a re-analysis of the deposited data

Results flagged for a closer look

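The following genes had tumour changes, or genotype differences, that ran in opposite directions in the 2 genotypes or the 2 tissues, on 1 array each; the value is the tumour change in F/F minus that in wild-type mice, and none of these differences was tested. Among the 10 goblet cell and mucus genes it was 2.56 for Retnlb, 0.86 for Muc4, 0.38 for Agr2 and 0.15 for Muc2, whose genotype difference was negative in normal colon and positive in tumour, and -0.04 for Muc13, whose tumour change was 0.01 in wild-type and -0.02 in F/F mice.

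In the mucus pathway it was 2.01 for Ang4, which changed by -1.74 in wild-type and 0.26 in F/F mice, 0.98 for Clca1, 0.58 for Muc3, 0.47 for Capn9, 0.30 for Galnt12, -0.23 for Gfi1 and -0.94 for Il33. In the marker lists it was 1.70 for Pln and 1.39 for Synm (smooth muscle), 1.54 for Hoxb13, -0.92 for Hoxb6 and -1.26 for Onecut2 (position), 1.35 for Gcg (enteroendocrine cells), 0.68 for Defa22 (Paneth cells) and -0.09 for Epcam.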

How the results depend on the processing

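Each of the 10 genes kept the direction of its fitted tumour difference under all 7 alternatives. Most of these could not have changed it. Leaving out the filter, the trend or the term not tested does not alter a fitted difference in this design. The mean of probe sets can alter only that of Muc2. For the rest of the 10 genes only the other scalings could change a direction. Without the trend of the prior variance 2 of the 10 genes fell and not 4: Spdef and Muc4 passed, while Agr2 (-0.68) and Retnlb (-2.78) did not; the cause was not tested. With the genotype term left out, 15 genes of the mucus pathway lists fell and not 24, and over all genes 651 fell and not 992; the genotype difference then counts as error. The tumour difference of Slc11a2 was 0.10 and turned to -0.018 after quantile normalization and -0.0063 after cyclic loess, with no call in either; the cause was not tested. With wild-type normal colon as the baseline of the F/F tumour, 3 of the 10 genes were past 2-fold and not 2. No paired analysis was possible because the labels give no replicate numbers and do not tie tumour and normal pieces to an animal. The genotype term already sets each tumour against the normal array of its own genotype, and no array could be left out of a group of 1.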

Other observations

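A few genes of the mucus lists, chosen after their values were seen, were lowest in F/F normal colon and highest in the F/F tumour. Tgm3, a transglutaminase that cross-links MUC2, had a log2 signal of 9.44 in wild-type normal, 7.53 in F/F normal, 9.26 in the wild-type tumour and 10.68 in the F/F tumour. The goblet cell channel Best2 was at 6.12, 5.22, 6.08 and 6.81 in the same order, and the glycosyltransferase B3gnt7 at 8.18, 6.84, 7.75 and 8.66. None of them passed limma for tumour against normal (adjusted p = 0.242, 0.233 and 0.400). Their tumour change was 3.15, 1.59 and 1.82 in F/F mice and -0.18, -0.04 and -0.43 in wild-type mice. The F/F normal array was also the lowest in the distal position list, at 4.51 against 5.72 in wild-type normal colon, and the part of position in these values was not tested.

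Reg4 and Spink4, markers of deep crypt secretory cells that were also chosen after their values were seen, were higher in both tumours than in the normal colon of the same genotype. Reg4 was at 9.49 and 9.93 in wild-type and F/F normal colon and at 10.81 and 10.45 in the tumours (limma adjusted p = 0.0524), and Spink4 at 10.02, 9.86, 10.25 and 10.12 (limma adjusted p = 0.152).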
